A study of Mus musculus with 79 samples.

Results

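The genes of the oxidative phosphorylation system coded in the nucleus were followed across mouse brain neurons chosen by dopamine receptor and region. Members were all listed genes whose symbol began with Ndufa, Ndufb, Ndufs, Ndufv or Ndufc and a number, was Sdha to Sdhd, or began with Uqcr, with Cox and a digit from 4 to 8, or with Atp5 and a letter. This gave 86 of the 25899 genes in the table: 37 under complex I, 4 under complex II, 8 under complex III, 19 under complex IV and 18 under the ATP synthase. By function, 20 code core subunits, 53 accessory subunits and 9 alternative isoforms; Uqcrc1 and Uqcrc2, core proteins of complex III by name that hold no redox centre, were counted as accessory. The other 4 carry a matching symbol without coding a subunit: Cox4nb (now Emc8, of the ER membrane protein complex), Atp5s and Atp5sl (now Dmac2l and Dmac2) and the pseudogene Atp5l-ps1. Ndufa4 was kept under complex I by its symbol, although its product is known to sit in complex IV.

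Complexes I and II pass electrons from NADH and succinate to ubiquinone, complex III passes them on to cytochrome c, and complex IV (cytochrome c oxidase) hands them to oxygen. The proton gradient built on the way drives the ATP synthase. In neurons this system supplies most of the ATP that ion pumping and synaptic transmission use, and a few of its subunits are made from alternative genes that differ between tissues.

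The data were 79 libraries of mRNA bound to tagged ribosomes, prepared by bacTRAP, in which a BAC (bacterial artificial chromosome) transgene puts EGFP-tagged L10a into the cells that use a chosen promoter and an antibody to GFP retrieves their ribosomes. The transgene promoter was that of Drd1a (D1) or Drd2 (D2). The mice were heterozygous carriers on C57BL/6J, no drug or other allele is named, ages are not given in the sources used here, and every library pooled 3 mice, of both sexes wherever the labels record all of them. The groups were D1 dorsal striatum (15 libraries), D2 dorsal striatum (16), D1 ventral striatum, that is nucleus accumbens (15), D2 ventral striatum (14) and D1 prefrontal cortex (19). All 79 libraries therefore carry a tagged-ribosome transgene, and RNA of the unselected tissue was not analysed here.

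Libraries held 7.35 to 30.8 M (mega) reads in listed genes. The deposited CPM columns, scaled by a larger total, summed to 309566 to 401527. Each library was therefore rescaled to its own column sum, and a level below is in RPM (reads per mega-read in listed genes) unless it is said to be per kilobase. The receptor labels were borne out by the driving genes: median Drd1a was 643 and 442 in the D1 dorsal and ventral groups against 33.3 and 39.2 in the D2 groups, and median Drd2 was 3071 and 1636 in the D2 groups against 15.9 and 23.6. In the D1 cortex group median Drd1a was 48.4, near the D2 striatal groups, beside a median of 684 for Slc17a7, the vesicular glutamate transporter of cortical excitatory neurons. Libraries are named with a letter code (EM, OdP, BdP or JAG) whose meaning is not given in the sources used here. EM names made up 11, 8, 11, 8 and 15 libraries of the groups in the order above, and since levels of the members moved with this code, each comparison is given over all libraries and over EM libraries alone.

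Promoters of 69 members were matched by symbol in the RefSeq table for GRCm38, and the 250 bases upstream of the start were searched on both strands for 5 motifs, of which the first 2 described are long tied to respiratory genes. The motif of nuclear respiratory factor 1 (NRF1), searched as GCGC, any 2 bases and GCGC again, was in 13 of 69 member promoters (18.8%) against 5.1% of all 27025 promoters of that length. The ETS-type motif bound by GABP (also called NRF2), searched as CCGGAAG, was in 11 (15.9%) against 7.1%, and 1 or both motifs were in 21 (30.4%) against 11.4%. The YY1 motif, searched as ATGGCG, was in 7 (10.1%) against 5.8%, CCAAT in 31 (44.9%) against 34.5%, and the TATA motif, searched as TATAAA, in 6 (8.7%) against 13%, the only one of the 5 that was rarer in members. Member promoters had a median GC content of 56.0% against 52.0%, and the part of GC content in the motif shares was not tested. The 3 sequences below are shown because each held 3 matches and they come from different complexes: Cox6a1 codes subunit VIa of complex IV, Sdha the flavoprotein of complex II and Ndufb4 an accessory subunit of complex I. They are printed 5′ to 3′ on the gene's strand (the minus strand for all 3) and end at the base before the annotated start. Capitals mark the NRF1 and ETS matches, which are NRF1 matches except for the last one in Cox6a1, an ETS match read on the opposite strand.
Cox6a1, chr5:115348959-115349208: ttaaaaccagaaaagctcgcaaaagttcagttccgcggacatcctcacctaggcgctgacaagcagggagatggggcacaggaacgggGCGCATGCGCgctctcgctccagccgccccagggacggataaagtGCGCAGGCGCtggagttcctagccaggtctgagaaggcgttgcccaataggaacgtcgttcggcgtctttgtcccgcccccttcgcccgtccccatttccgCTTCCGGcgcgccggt
Sdha, chr13:74350241-74350490: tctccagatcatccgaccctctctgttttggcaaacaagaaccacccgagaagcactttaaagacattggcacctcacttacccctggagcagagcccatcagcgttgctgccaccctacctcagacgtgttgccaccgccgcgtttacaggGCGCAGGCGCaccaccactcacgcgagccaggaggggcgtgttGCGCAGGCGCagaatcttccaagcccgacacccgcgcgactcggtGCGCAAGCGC
Ndufb4, chr16:37654369-37654618: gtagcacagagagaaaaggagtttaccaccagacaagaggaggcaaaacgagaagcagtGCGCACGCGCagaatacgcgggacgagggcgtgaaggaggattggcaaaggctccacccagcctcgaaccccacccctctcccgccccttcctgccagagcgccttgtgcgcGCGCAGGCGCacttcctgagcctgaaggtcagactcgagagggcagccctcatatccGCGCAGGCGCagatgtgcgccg
A match is a stretch of letters and says nothing of binding in these cells.

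The members differed widely in level. Per kilobase of transcript, the median over all libraries was highest for Atp5b, the catalytic beta subunit of the ATP synthase, at 1050 RPM per kilobase. It was followed by Atp5g3 (563), a gene for the membrane-embedded subunit c, Ndufa4 (551), Cox4i1 (528), subunit IV of complex IV, and Uqcrh (506), the hinge protein of complex III. Ndufs1, a core subunit of complex I (31.1), and Uqcrc1 (40.4) were far lower on this scale. For the isoform families the general form was high and the tissue-restricted form low: Cox4i1 had group medians of 190 to 506 RPM, whereas Cox4i2, its lung isoform, had a median of 0 in every group.

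Of the 86 members, 77 reached the level filter in every striatal comparison (at least 1 deposited CPM in a number of libraries equal to the smaller group), and Cox6a2 joined them in the cortical ones. The 8 that passed in none were Cox4i2, Cox6b2, Cox7a1, Cox7b2, Cox8b, Cox8c, Ndufa4l2 and Atp5l-ps1, all but the last of them tissue-restricted isoforms or paralogs. Their group medians lay between 0 and 0.75 RPM. Cox8c was at 0 in 14 of 15, 16 of 16, 14 of 15, 14 of 14 and 19 of 19 libraries of the groups in the order above. Cox7a1, the heart and muscle isoform of subunit VIIa, reached 5.30 in 1 cortex library, beside a cortex median of 0.75.

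The members together took 0.797 to 3.32% of the reads in genes. The share had a lowest, median and highest value of 1.04, 1.69 and 3.32% in D1 dorsal striatum and 1.01, 1.27 and 1.82% in D2 dorsal striatum. It was 1.01, 1.65 and 1.93% in D1 ventral striatum, 0.869, 1.53 and 1.76% in D2 ventral striatum and 0.797, 1.52 and 1.71% in D1 prefrontal cortex. The groups overlapped. Within each group the libraries split by name code: every EM library was at 1.41% or above, and every library with another code was at 1.12% or below except 1 OdP library of D1 ventral striatum at 1.5%. Over EM libraries alone the medians were 1.73, 1.68, 1.71, 1.65 and 1.57%, a narrower range than the medians over all libraries.

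**Figure D1:**
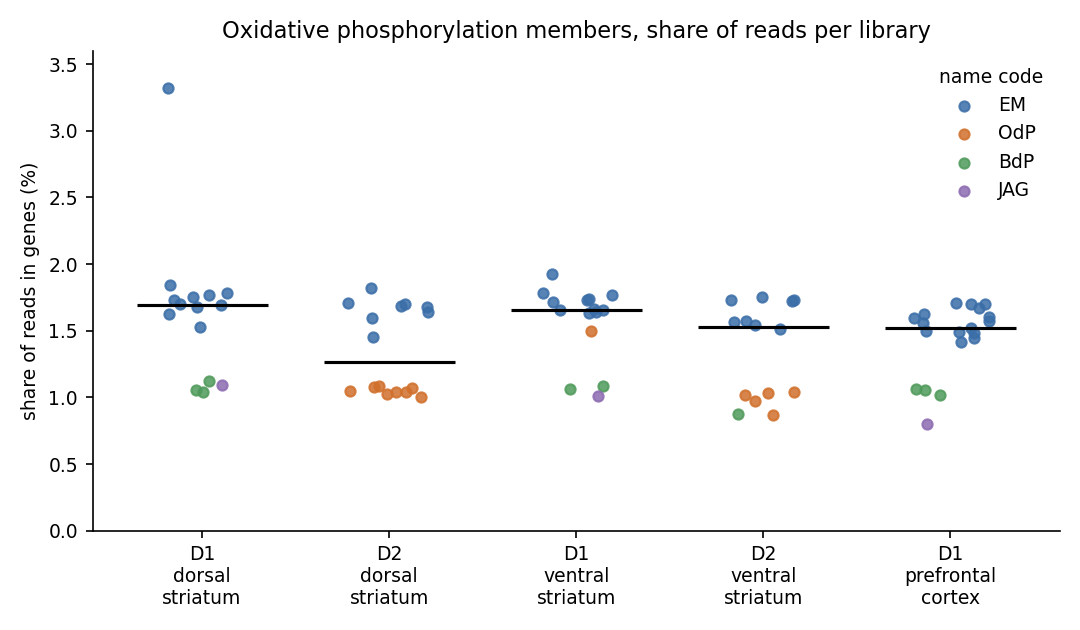
Share of reads in genes taken by the 86 members (percent, y axis) in each of the 79 libraries, by group (x axis) and coloured by name code; the bar is the group median. EM libraries sit at 1.41% or above in every group, and 1 D1 dorsal striatum library stands apart at 3.32%.

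That D1 dorsal striatum library, replicate 4 with an EM name, had 60 of the 77 tested members above every other library of its group. Ndufs3, a core subunit of complex I, was at 917 RPM there and at most 298 in the other 14. Atp5e, the epsilon subunit of the ATP synthase, was at 779 against at most 217. Atp5b went the other way, at 1260 against 1512 to 2324 elsewhere in the group. The cytosolic ribosomal proteins took 2.38% of its reads, also the highest of the 79 libraries, while the D1 markers took 0.235%, the highest of their group. The comparisons that use D1 dorsal striatum are given with and without it.

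The size of the name-code difference was measured inside the 2 groups that hold enough of both EM and OdP libraries. A member is called when its limma p, adjusted over all genes by the Benjamini-Hochberg method, is under 0.05, and differences are on the log2(RPM + 1) scale. In D2 dorsal striatum (8 EM against 8 OdP) 63 of 77 members were higher in EM and 0 lower, where 20.1% of all tested genes were higher and 10.6% lower. With unadjusted p under 0.05, 68 were higher and 1 lower, and edgeR's quasi-likelihood test on the recovered reads called 62 higher and 0 lower, against 16.7% and 13.9% of all genes. The median difference was 0.80 over the members and 0.09 over all genes. For 42 members no EM library overlapped an OdP library, which held in that direction for 5.41% of all genes.

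All complexes took part, but not all genes. In D2 dorsal striatum 35 of 36 tested complex I members were higher in EM, 2 of 4 of complex II, 4 of 8 of complex III, 11 of 12 of complex IV and 11 of 17 of the ATP synthase. Cox5b, subunit Vb of complex IV, had a lowest, median and highest level of 287, 355 and 405 in EM libraries and 117, 128 and 139 in OdP libraries. The groups did not overlap, and the difference was 1.43 (SE 0.08, adjusted p = 2.1e-09). Ndufa1, a small accessory subunit of complex I, was at 147, 162 and 198 against 50.9, 67.1 and 78.1, again without overlap and with a difference of 1.38. Atp5b was at 1532, 1885 and 2464 against 1908, 2096 and 2336, overlapping, with a difference of -0.13 (SE 0.10, adjusted p = 0.35). Uqcrc1, too, was not called (0.36, adjusted p = 0.23).

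In D2 ventral striatum (8 EM against 5 OdP) 66 of 77 members were higher and 0 lower, against 17.8% and 5.77% of all genes. There 68 were higher and 1 lower at unadjusted p under 0.05, and edgeR called 54 higher and 2 lower, against 11% and 10% of all genes. The median was 0.95 against 0.17 for all genes, and 47 members did not overlap, against 7.04% of genes. Ndufa1 was at 134, 171 and 241 in EM and 44.4, 50.1 and 65.9 in OdP libraries, a difference of 1.74 (SE 0.15, adjusted p = 1.7e-06) without overlap. Uqcr11, a small subunit of complex III, was at 72.2, 129 and 206 against 36.0, 38.8 and 42.1, without overlap (1.65, SE 0.22). Uqcrq, another small complex III subunit, differed by 1.66 (SE 0.38) with overlapping ranges. Uqcrc1, not called in the dorsal group, was called here (0.55, SE 0.19, adjusted p = 0.039), whereas Atp5b again was not (-0.31, adjusted p = 0.15).

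Other gene groups moved with the code as well. Of 78 tested cytosolic ribosomal proteins 72 and 74 were higher in EM in the dorsal and ventral group, of 73 mitochondrial ribosomal proteins 48 and 45, and of 16 glycolytic enzymes 10 and 7. Members have short transcripts, with a median of 865 bases against 2752 over all genes with a matched transcript. The difference ran with transcript length across the 77 members (Spearman's rho -0.51 dorsal, -0.48 ventral) and across all genes (-0.47, -0.41). These genes share libraries, so the values are descriptions. Whether the code stands for a difference in mice, dissection or library preparation cannot be told apart here.

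**Figure D2:**
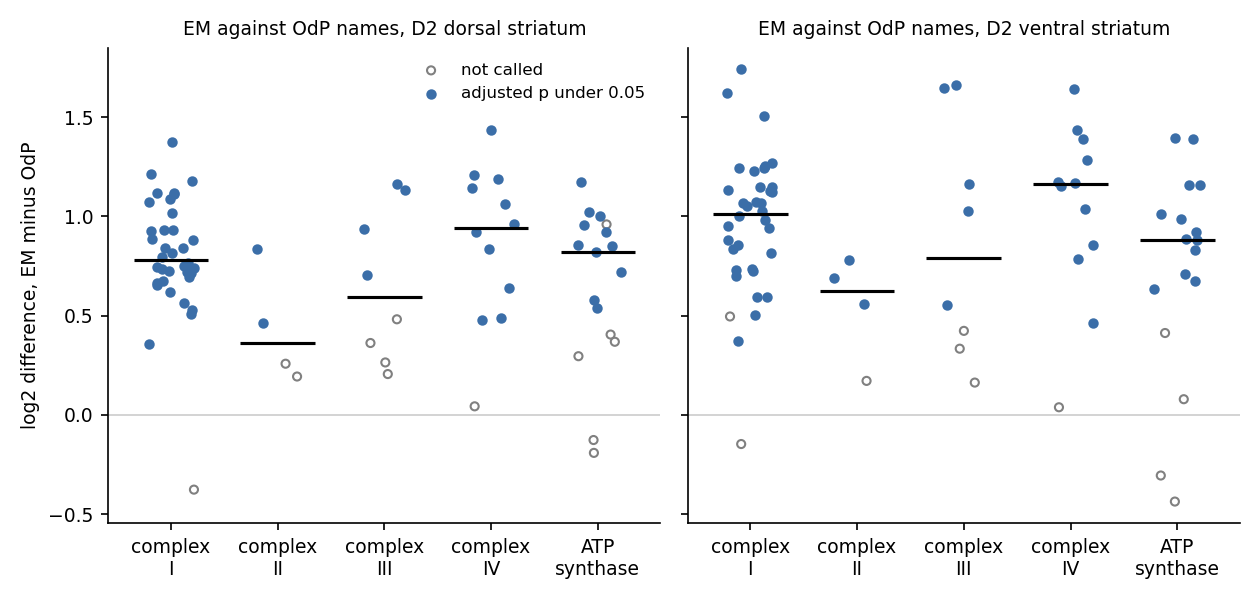
Log2 difference between EM and OdP libraries (y axis) for each tested member, by complex (x axis), in D2 dorsal striatum (left, 8 against 8 libraries) and D2 ventral striatum (right, 8 against 5); filled points have an adjusted p under 0.05 and bars are medians. Nearly all members of complexes I and IV lie above 0, and points at or below 0 are few and unfilled.

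The first comparison between groups asked whether D1 and D2 neurons of the dorsal striatum differ. Over all libraries 10 of 77 members were higher in D1 and 0 lower, and among all tested genes 15.3% were higher and 10.4% lower, so the members were called about as often as other genes in the first direction. With unadjusted p under 0.05, 30 were higher and 0 lower, and edgeR called 8 higher and 0 lower, against 12.4% and 14.4% of all genes. The median difference of the members was 0.31 and that of all genes 0.07. Because the RNA was pooled from many cells, fewer cells of a type and less RNA per cell cannot be told apart. The p-values measure the spread between pools, and the labels do not say whether regions were taken from the same mice.

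The largest of the 10 were Ndufa13, an accessory complex I subunit, Cox6b1, subunit VIb of complex IV, and Atp5d, the delta subunit of the ATP synthase (chr10:80138698-80145828 in GRCm38). Ndufa13 had a lowest, median and highest level of 85.3, 240 and 622 in D1 and 74.3, 114 and 276 in D2, with a difference of 0.71 (SE 0.24, adjusted p = 0.027). Cox6b1 was at 69.4, 187 and 443 against 43.8, 101 and 224 (0.65, SE 0.24, adjusted p = 0.041). Atp5d was at 90.1, 259 and 514 against 74.2, 146 and 319 (0.60, SE 0.21, adjusted p = 0.034). All 3 overlapped between the groups, as did every tested member. The other 7 were Ndufb9, Ndufs8 and Ndufa9 of complex I, Sdhb and Sdhc of complex II, Cox7a2l, which takes part in joining complexes III and IV, and Uqcrc1, with differences of 0.31 to 0.51.

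Few of these calls held in subsets of the libraries. Over EM libraries alone (11 against 8) 0 members were called by limma and 0 by edgeR, where 7.61% and 4.81% of all genes were higher and lower. With unadjusted p under 0.05, 9 were higher and 0 lower in both tests. Without replicate 4, 3 members were called over all libraries (Ndufa9, Ndufb9 and Sdhc, at 0.45, 0.38 and 0.22), and with the code as a covariate 2, neither of them among the 10. With the column sum as a covariate 0 were called, with 7 higher and 0 lower at unadjusted p under 0.05. Complex I, with 36 tested members, had a median of 0.31 over all libraries and 0.17 over EM libraries.

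In the ventral striatum 21 of 77 members were higher in D1 and 5 lower, against 32.5% and 16.6% of all genes, so over all libraries members were called no more often than genes at large. The median was 0.29 against 0.13 for all genes. Over EM libraries (11 against 8) 18 were higher and 12 lower, against 25.0% and 15.9%, with medians of 0.06 and 0.08. Of the 26 calls, 17 higher and 5 lower were called both ways, as were 23.5% and 12.9% of all genes. The split moved with the setting. Median-ratio scaling alone gave 16 higher and 6 lower, against 24.6% and 23.7% of all genes. EdgeR, which changes both scaling and test, called 14 higher and 6 lower, against 21.5% and 25.5%, with the median of all genes at -0.01 in place of 0.13. Within EM libraries 4 alternatives gave fewer higher and more lower calls than the 18 and 12, with 14 higher and 19 lower by edgeR (16.3% and 23.0% of all genes), 13 and 21 on deposited CPM (16.4% and 23.7%), 15 and 15 with median-ratio scaling (20.6% and 19.5%) and 10 and 15 after the GC correction described below (16.3% and 16.5%).

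Complex I supplied 11 of the higher calls and 3 of the lower ones out of 36. Ndufv1 codes the FMN-binding core subunit that accepts electrons from NADH (chr19:4007499-4012755). Its lowest, median and highest level was 75.2, 156 and 198 in D1 and 22.1, 70.5 and 155 in D2, with 8 D1 libraries above every D2 library. The difference was 0.98 (SE 0.21, adjusted p = 0.00033), and 0.76 (SE 0.16) in EM libraries. Ndufa9, an accessory subunit near the ubiquinone site (chr6:126821863-126849144), was at 132, 226 and 249 against 45.3, 109 and 206. Its difference was 0.91 (SE 0.16, adjusted p = 3e-05), and 0.78 in EM libraries, and 10 of 15 D1 libraries lay above every D2 library. Of the 7 conserved core subunits of complex I coded in the nucleus, 4 were higher and 0 lower over all libraries, against 32.5% and 16.6% of all genes.

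The complex I members that were lower in D1 were Ndufc1, Ndufa6 and Ndufs4, all accessory. Ndufc1 was at 67.1, 92.9 and 147 in D1 and 89.4, 136 and 208 in D2 (-0.52, SE 0.12, adjusted p = 0.00075; -0.44 in EM libraries). Ndufa6 was at 40.4, 83.0 and 100.0 against 56.0, 98.0 and 201 (-0.40, SE 0.17, adjusted p = 0.049; -0.58 in EM libraries). The ranges of both overlapped. Ndufs4, a gene whose loss is a known cause of complex I deficiency, differed by -0.24 over all libraries and by -0.40 (SE 0.08, adjusted p = 0.00042) in EM libraries, and after GC correction it was called in EM libraries (-0.24, adjusted p = 0.021) but not over all libraries. It was the only tested member whose EM groups did not overlap, at 131, 153 and 169 in D1 and 174, 189 and 238 in D2. In that direction 1.84% of all genes did not overlap.

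Complex II had 3 of 4 members higher in D1 and 0 lower: Sdhb, the iron-sulphur subunit (0.56), Sdhd, a membrane anchor (0.33), and Sdha (0.30), of which Sdhb and Sdhd were also called in EM libraries. Complex III split, with Uqcrh (0.55) and Uqcrc1 (0.46) higher and Uqcrb and Uqcrfs1, the Rieske iron-sulphur protein (-0.21), lower. Uqcrb, a small ubiquinone-binding subunit (chr13:66900576-66905350), was at 35.1, 63.1 and 119 in D1 and 57.3, 101 and 182 in D2. Its difference of -0.74 (SE 0.15, adjusted p = 0.00017) was the most negative of the members, and it was -0.86 in EM libraries. Ranges overlapped, with 4 of 14 D2 libraries above every D1 library.

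In complex IV 2 of 12 tested members were higher, Cox4i1 (0.72) and Cox7a2l (0.43), of which Cox4i1 was also called in EM libraries (0.44, adjusted p = 0.045). Cox4i1 was at 156, 496 and 596 in D1 and 91.9, 211 and 572 in D2. In the ATP synthase 3 of 17 were higher: Atp5d (0.95, SE 0.18, adjusted p = 0.0001), Atp5b (0.34) and, by its symbol only, Atp5sl (0.66). Atp5d was at 160, 258 and 294 in D1 and 63.7, 113 and 285 in D2. Atp5b, which was not called between the name codes, was at 1847, 2099 and 2390 against 1048, 1721 and 2108, and its difference was 0.45 (SE 0.10) in EM libraries, with 10 of 11 D1 libraries above every D2 library.

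**Figure D3:**
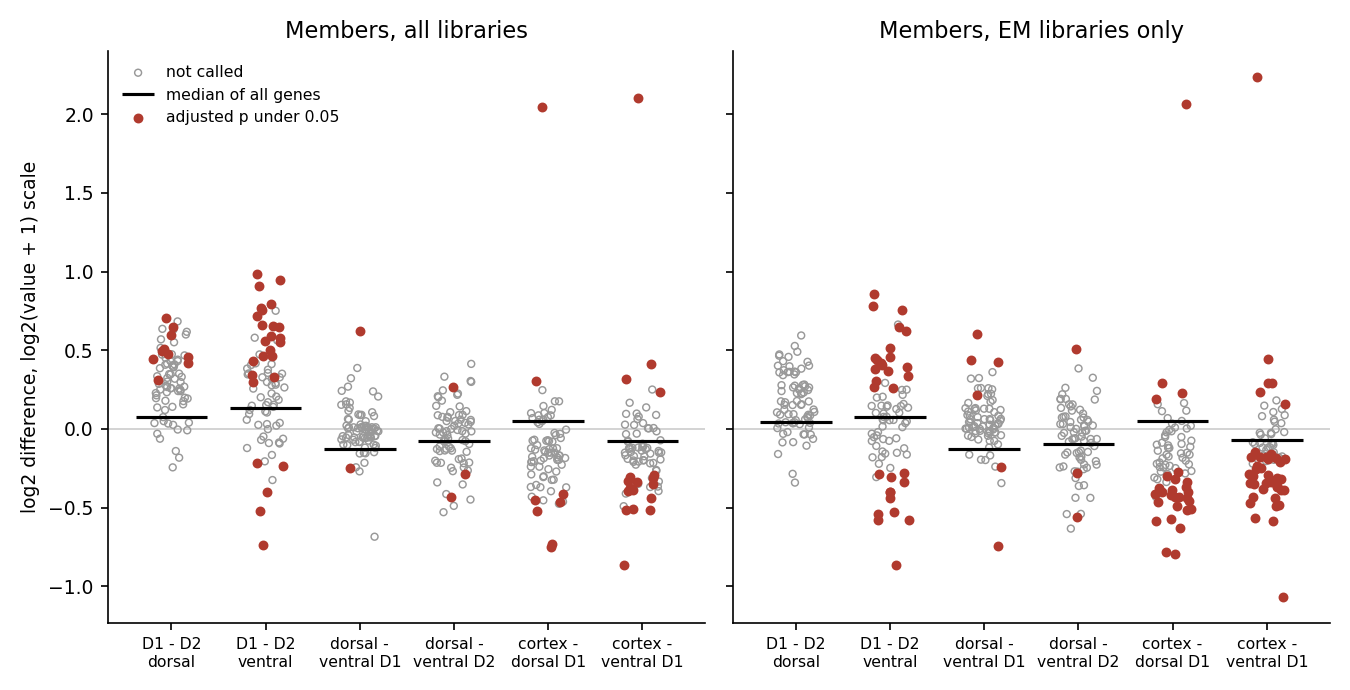
Log2 differences of the tested members in the comparisons between groups, over all libraries (left) and EM libraries only (right), with each point 1 member, filled points at an adjusted p under 0.05 and bars at the median of all genes. Over all libraries, called members in the ventral striatum lie on both sides of 0, from -0.74 (Uqcrb) to 0.98 (Ndufv1), and in the cortex comparisons Cox6a2 lies apart from the rest at 2.04 and 2.10.

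Higher and lower members differed in base composition. The median GC content of the longest coding transcript (GENCODE M21) was 54.8% for the 21 higher members, 44.1% for the 5 lower and 50.2% for the rest. Across the 77 members Spearman's rho between GC content and the difference was 0.63, and 0.57 in EM libraries. Across all tested genes with a GC value it was 0.61 and 0.52, so the members followed the table as a whole; the genes share the same libraries. In the dorsal striatum rho was 0.58 for the members and 0.46 for all genes. After a per-library lowess correction for GC content, 10 members were higher and 7 lower in the ventral striatum, against 16.8% and 17.2% of all genes, with 9 and 4 of the original calls among them. Ndufa9 (0.86), Ndufv1 (0.53) and Atp5d (0.41) remained higher, and Ndufa6 (-0.72), Uqcrb (-0.54) and Ndufc1 (-0.40) lower. Of the original calls 12 higher and 1 lower were lost, among them Ndufs4 (-0.071, adjusted p = 0.59) and Atp5b (0.12, adjusted p = 0.34). The same correction within EM libraries called 10 of the original higher and all 5 of the original lower members, Ndufs4 (-0.24) and Atp5b (0.31, adjusted p = 0.0032) among them. Of the 26 members called before the correction Uqcrc1 alone changed sign over all libraries, to -0.023, and it was not called in either set (0.027 in EM libraries). In EM libraries the correction put Ndufb10 (-0.098), Ndufb11 (-0.029) and Ndufs7 (-0.039) below 0, none of them called.

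**Figure D4:**
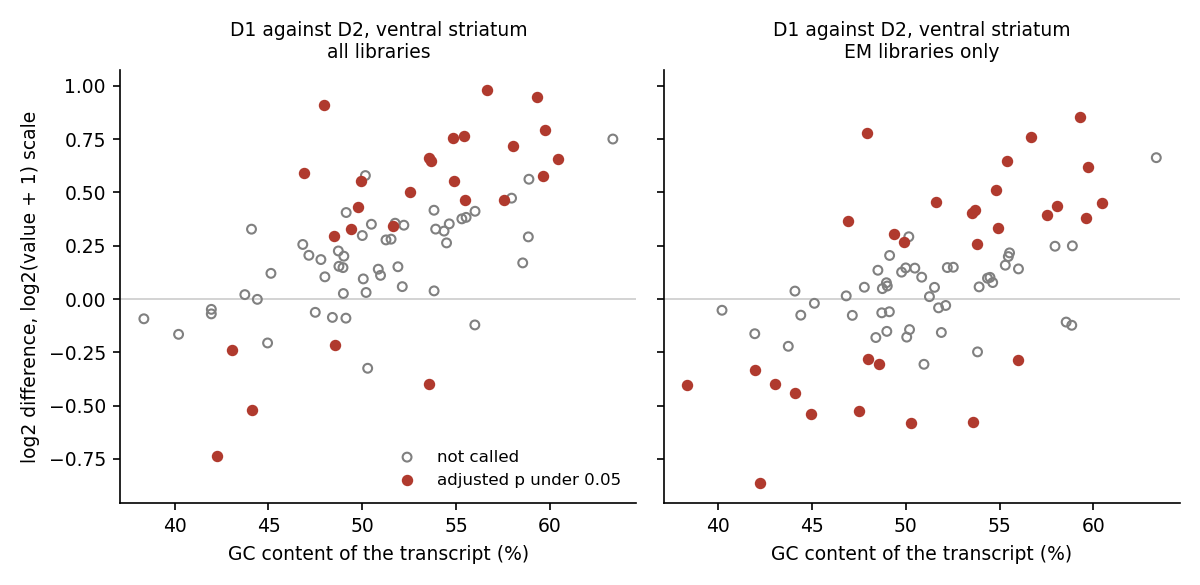
GC content of the transcript (percent, x axis) against the D1 minus D2 log2 difference in the ventral striatum (y axis) for each tested member, over all libraries (left) and EM libraries only (right); filled points have an adjusted p under 0.05. In both panels members with higher GC content tend to lie higher, with Spearman's rho of 0.63 and 0.57.

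Column sums went with the receptor in this region, with a median of 347392 CPM in D1 and 382255 in D2. With the column sum as a covariate 0 of 77 members were called by limma (3 higher and 7 lower at unadjusted p under 0.05), and the median of the members turned to -0.17, while calls over all genes fell to 5.63% higher and 5.09% lower. The same fit over EM libraries also called 0. Receptor and column sum can therefore not be told apart for these members. Markers of other cells also moved: 5 of 5 tested cortical excitatory markers were higher in D1, taking 0.0050 to 0.0340% of reads against 0.0010 to 0.0226% in D2, and 3 of 3 tested cholinergic markers were lower, at 0.0002 to 0.0008% against 0.0017 to 0.0038%. Of 3 tested oligodendrocyte markers 2 were lower in D1, with the list at 0.0115 to 0.0203% against 0.0128 to 0.0502%. In the dorsal striatum the cortical markers were again 5 of 5 higher, at 0.0089 to 0.0449% against 0.0004 to 0.0107%, and 4 of 4 tested GABA interneuron markers were higher, at 0.0111 to 0.0224% against 0.0076 to 0.0126%. There the 1 tested cholinergic marker was lower, with the list at 0.0001 to 0.0004% against 0.0008 to 0.0037%, as were 2 of 4 tested oligodendrocyte markers, with the list at 0.0132 to 0.0469% against 0.0173 to 0.0540%. A marker scarce in 1 receptor group, as the cholinergic ones were in D1, could pass the level filter through the other group, where it was high. The direction of such a marker is a description. The part of all these markers in the differences of the members was not tested.

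Whether the receptor difference itself differed between the regions was tested as an interaction over the 4 striatal groups. By limma 0 of 77 members were called, with 0 positive and 2 negative at unadjusted p under 0.05. Among all genes 1.61% were positive and 1.00% negative. EdgeR also called 0, with 4 positive and 3 negative at unadjusted p under 0.05. Over EM libraries both tests called 0. There 7 were positive and 3 negative at unadjusted p under 0.05 by limma, and 11 and 2 by edgeR. Without replicate 4 the limma count over all libraries was again 0, with 0 and 2 at unadjusted p under 0.05. Atp5b came closest (-0.37, SE 0.12, adjusted p = 0.071), with a D1 minus D2 difference of -0.03 in the dorsal and 0.34 in the ventral striatum; without replicate 4 it was at -0.33 (adjusted p = 0.10). It was called with the code as a covariate (-0.36, adjusted p = 0.045) and after quantile normalization (-0.43, adjusted p = 0.021).

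Between dorsal and ventral striatum few members were called over all libraries, and the count moved with the setting. In D1 neurons 1 of 77 members was higher dorsally and 1 lower, against 10.2% and 25.1% of all genes, with a median of -0.01 for members and -0.13 for all genes. Ndufs3 (chr2:90894627-90904721) was at 155, 258 and 917 in the dorsal and 73.5, 179 and 262 in the ventral group, a difference of 0.62 (SE 0.19, adjusted p = 0.011) with overlap. It was 0.60 in EM libraries and 0.49 without replicate 4, called each time. Sdhd was at 128, 168 and 212 against 168, 199 and 234 (-0.25, SE 0.07, adjusted p = 0.008), also called in EM libraries. EM libraries, where 9.14% and 22.3% of all genes were higher and lower, gave 4 higher and 2 lower, adding Cox6a1 (0.44), Ndufa1 (0.43) and Cox8a (0.21) as higher and Atp5g2, another gene for subunit c, as lower (-0.75). Without replicate 4, EM libraries gave 4 higher and 3 lower: Cox6a1 (0.33) and Ndufa1 (0.27) stayed called, while Cox8a (0.18, adjusted p = 0.052) and Atp5g2 (-0.60, adjusted p = 0.073) did not. Ndufa1 was at 484 RPM in that library. EdgeR, which moved the median of all genes to 0.01, called 6 higher and 0 lower (15.4% and 13.2% of all genes), and 13 higher and 0 lower in EM libraries (15.8% and 10.6% of all genes). With the code as a covariate 7 were higher and 2 lower (11.6% and 29.5%).

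In D2 neurons 1 member was higher dorsally and 2 lower, against 8.88% and 17.8% of all genes. Atp5b was higher (0.27, SE 0.09, adjusted p = 0.03), at 1532, 2023 and 2464 against 1048, 1721 and 2108, overlapping, and was not called in EM libraries (0.33, adjusted p = 0.11). Ndufc1 was lower (-0.43, adjusted p = 0.022; -0.54 in EM libraries, adjusted p = 0.054), as was Uqcrc2, a core protein of complex III, at 94.7, 139 and 175 against 117, 166 and 206 (-0.29, SE 0.09, adjusted p = 0.018). EM libraries gave 1 higher (Ndufb9, 0.51) and 2 lower (Uqcrc2, -0.28, and Ndufb3, -0.56), against 5.46% and 12.9% of all genes. EdgeR called 3 higher and 0 lower (12.1% and 11.8% of all genes). With the code as a covariate 7 were higher and 4 lower (10.4% and 21.0% of all genes), and with the column sum in EM libraries 2 higher and 12 lower (7.80% and 21.5%).

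For D1 neurons the cortex libraries were set against either part of the striatum, so both comparisons share all 19 of them. Cox6a2, which passed the level filter only through the cortex libraries, is left out of the counts and medians here and described below. Against the dorsal striatum 1 of 77 members was higher in cortex (Uqcrc1) and 6 lower, against 32.4% and 22.7% of all genes, so over all libraries limma called members less often than the table in both directions. The median was -0.15 against 0.05. Over EM libraries (15 against 11) 3 were higher and 24 lower, against 31.6% and 21.6%, and edgeR over all libraries called 1 higher and 28 lower, against 26.8% and 29.8%, so in both of these the lower calls were more frequent among members than among all genes. The difference in frequency was not tested. Without replicate 4 there were 3 higher and 6 lower over all libraries, and 4 higher and 21 lower in EM libraries. Leaving it out moved the median of the members from -0.15 to -0.0675 over all libraries and from -0.22 to -0.12 in EM libraries. All 7 original calls were called in EM libraries too.

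Against the ventral striatum 3 were higher and 14 lower, where 27.7% and 35.8% of all genes were, and the medians were -0.15 and -0.08. Over EM libraries 5 were higher and 35 lower, against 28.4% and 36.8%, and all 17 original calls were among them; edgeR called 6 higher and 14 lower, against 30.9% and 31.0% of all genes. Of the 14, Cox4nb and Atp5sl are no subunits. By complex, the EM libraries gave 17 of 36 lower in complex I, 3 of 4 in complex II, 3 of 8 in complex III, 2 of 12 in complex IV and 10 of 17 in the ATP synthase, with 1, 0, 2, 2 and 0 higher.

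Ndufb10, an accessory complex I subunit (chr17:24722060-24724423), was lower in cortex than in either region. In EM libraries it was at 137, 179 and 204 in cortex, 207, 250 and 417 in dorsal and 223, 244 and 284 in ventral striatum, with no overlap. Its differences over all libraries were -0.52 (SE 0.18, adjusted p = 0.015; -0.45 without replicate 4, adjusted p = 0.032) and -0.52 (SE 0.16, adjusted p = 0.0058). Against the dorsal striatum Ndufs3 was lower by more (-0.75, SE 0.17, adjusted p = 0.00023; -0.61 without replicate 4), at 91.6, 169 and 212 in cortex, with ranges that overlapped. Ndufa1 differed by -0.73 (SE 0.24, adjusted p = 0.0086; -0.59 without replicate 4), and its EM libraries did not overlap, at 66.2, 95.4 and 114 against 116, 154 and 484. In EM libraries 5.03% of all genes were lower in cortex than in dorsal striatum with no overlap, and 9.56% were lower than in ventral striatum.

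Against the ventral striatum Atp5g2 had the most negative difference (-0.86, SE 0.29, adjusted p = 0.0092), at 12.3, 49.5 and 90.6 in cortex and 27.2, 99.7 and 151 in ventral striatum. Atp5l, the g subunit of the ATP synthase, differed by -0.51 (SE 0.18, adjusted p = 0.015). Cox4nb, no subunit of the chain, was lower than in either region (-0.45 and -0.51). On the other side, Cox8a, the general form of subunit VIII, was higher in cortex (0.41, SE 0.11, adjusted p = 0.00089). In EM libraries it did not overlap, at 223, 266 and 326 against 153, 205 and 220, as held in that direction for 9.25% of all genes. Uqcrc1 was higher against both regions (0.31 and 0.32), and Uqcrfs1 against the ventral striatum (0.23). With runs of consecutive EM names as a replicate block, an alternative described below, Uqcrc1 was not called against the dorsal striatum.

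Cox6a2, the heart and skeletal muscle isoform of complex IV subunit VIa (chr7:128205435-128206366), was higher in every cortex library than in any striatal one. Its lowest, median and highest level was 2.83, 7.39 and 16.2 RPM in cortex. It was 0.054, 1.08 and 2.40 in D1 dorsal striatum, 0, 0.375 and 1.28 in D2 dorsal striatum, 0.395, 0.929 and 1.58 in D1 ventral striatum and 0, 0.687 and 2.28 in D2 ventral striatum. Among the striatal libraries 3 D2 dorsal and 2 D2 ventral libraries were at 0. Within cortex the 4 libraries without an EM name were the lowest, at 2.83 to 4.36, below 5.66 to 16.2 in the EM libraries. The recovered reads behind these values were 56 to 221 in cortex libraries and 0 to 49 in striatal ones.

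Cox6a2 passed the level filter only through the cortex libraries, the group where it was high, so its differences are given as a description with no p-value. The difference was 2.04 (SE 0.19) against D1 dorsal and 2.10 (SE 0.16) against D1 ventral striatum, on a scale that understates changes of low genes. It was 2.07 and 2.24 in EM libraries and 2.05 against the dorsal group without replicate 4. Groups without overlap in this direction made up 6.53% and 6.70% of all genes, and 8.61% and 9.25% in EM libraries. Cox6a1, the general isoform, was at 136, 315 and 387 in cortex and 153, 345 and 771 in D1 dorsal striatum, and was not called there, so that Cox6a2 stayed the minor form in level.

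**Figure D5:**
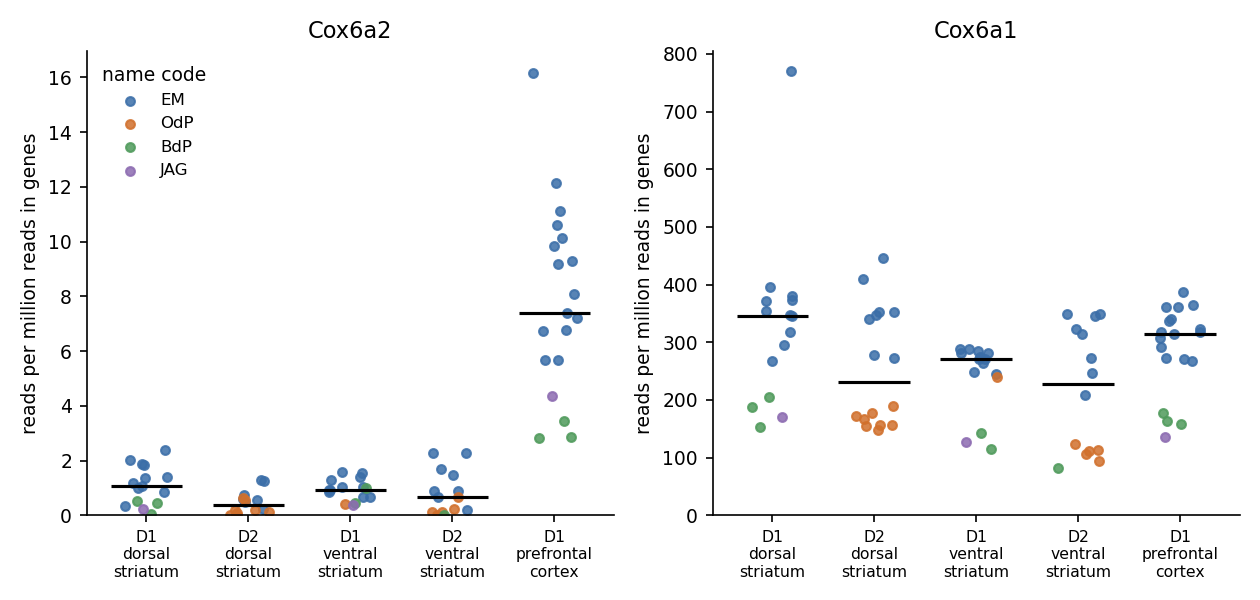
Levels of Cox6a2 (left) and Cox6a1 (right) in RPM, each on its own linear axis, with 1 point per library coloured by name code and bars at group medians. Cox6a2 is at 2.83 to 16.2 in the 19 cortex libraries and at most 2.40 in striatum, while the Cox6a1 ranges of all 5 groups overlap.

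Markers of other cells moved with the cortex. All 5 tested GABA interneuron markers were higher there than in either D1 striatal group, at 0.0411 to 0.0760% of reads against 0.0111 to 0.0224% dorsally and 0.0087 to 0.0186% ventrally. Among them Pvalb was at 9.16, 44.9 and 82.8 in cortex against medians of 11.7 and 4.02. All 5 astrocyte markers were higher (0.0029 to 0.0140% against 0.0010 to 0.0044% and 0.0006 to 0.0024%), as were all 5 tested cortical excitatory markers, whereas all 5 striatal projection neuron markers were lower, and of 3 tested oligodendrocyte markers 2 and 1 were lower. Itgad, a gene that overlaps Cox6a2, was at 1.01 or less in every library. A marker scarce in striatum could pass the level filter through the cortex libraries, where it was high. The direction of such a marker is a description. The part of these cell types in the Cox6a2 level and in the lower members was not tested.

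Other genes of energy metabolism were counted in the same fits. Of 16 glycolytic enzymes 10 were higher in D1 than in D2 in the dorsal and 11 in the ventral striatum, with 0 lower in both, where 15.3% and 32.5% of all genes were higher. With EM libraries alone these counts were 4 and 11, where 7.61% and 25.0% of all genes were higher. In cortex 11 were higher and 1 lower against the dorsal striatum, where 32.4% and 22.7% of all genes were higher and lower. Against the ventral striatum 9 were higher and 2 lower, where 27.7% and 35.8% of all genes were. Of 12 tested citric acid cycle genes 4 and 7 were higher in D1. Of 73 mitochondrial ribosomal proteins 4 and 22 were higher in D1 (0 and 4 lower), beside 10 and 21 of the 77 members (0 and 5 lower). Among all genes 10.4% and 16.6% were lower in D1. In cortex 4 of the 73 were higher and 11 lower against dorsal and 2 higher and 32 lower against ventral striatum, beside the shares of all genes just given for cortex.

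Subunits coded by mitochondrial DNA, which cytosolic ribosomes do not translate, were scarce, with 5 to 7 of 13 tested. All 5 tested were lower in D1 than in D2 in the ventral striatum (median -2.27), and 6 of 6 and 5 of 5 were higher in cortex than in dorsal and ventral striatum (medians 1.67 and 2.04). They took 0.0014 to 0.101% of reads in genes. At such levels a gene could pass the level filter through the group where it was high, so these directions are a description. These lists share libraries with the members, and none of the differences between lists was tested.

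The promoter matches were set beside the differences. Members with an NRF1 or ETS match had a median D1 minus D2 difference of 0.32 in the ventral striatum (21 tested, 4 called), and those without one 0.27 (44 tested, 18 called). These calls pool both directions, in which 32.5% of all genes were higher and 16.6% lower. The difference between members with and without a match was not tested. For EM against OdP in D2 dorsal striatum the medians were 0.93 and 0.75. Read assignment sets a limit on single members: 28 of the 86 overlap another RefSeq gene, among them Atp5b, Atp5d, Cox6a2, Ndufa1 and Ndufa9, the amplified cDNA keeps no strand, and many members have processed pseudogenes whose reads could be shared.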

How the data were processed

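Per the labels' protocols, RNA from immunoprecipitated ribosomes was reverse-transcribed and amplified, and libraries were read as 50-base pairs. The submitters' processing notes name Trim Galore 0.4.2, cutadapt 1.9.1, FastQC, HISAT2 and the build GRCm38; the counting program and annotation are not given in the sources used here. The authors deposited CPM values, scaled by a total larger than the reads in listed genes. These were whole multiples of 1 read for 100% of values (tolerance 0.02 reads), and 1 read was worth 0.0124 to 0.0466 CPM. Reads have no molecular identifiers, so depth bounds counting error only.

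CPM was divided by the column sum of each library and expressed as RPM. Each comparison was fitted on its own groups with limma 3.58.1 in R 4.3.3 (lmFit, eBayes with trend) on log2(value + 1), for genes with at least 1 deposited CPM in as many libraries as the smaller group, two-sided, with Benjamini-Hochberg adjustment over all genes. The count test on recovered reads, edgeR 4.0.16, called 8, 20, 6, 3, 30 and 21 members in the 6 comparisons between groups (the last 2 counts with Cox6a2) and was an alternative. GC content came from GENCODE M21 coding transcripts (20852 genes, 85 of the 86 members); 82 members matched RefSeq by current symbol and 4 by a synonym. Members, gene lists and tests were chosen with earlier results of these data known. Text names the 3 called members with the largest difference in each direction, a fixed subunit per complex (Ndufs1, Sdha, Uqcrc1, Cox5a, Atp5b), the isoform families and the members that never passed the filter; other members are named by complex or for overlap after their values were seen. Alternatives were other scalings, pseudocounts (0.1, 5), no filter, EM names only, covariates and, chosen after seeing the data, leaving out a library, GC correction, combinations with EM names and runs of consecutive EM names as a replicate block.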

Additional observations from a re-analysis of the deposited data

How the results depend on the processing

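Groups share no replicate numbers in the labels, apart from 1 dorsal and 1 ventral library with the same name number, so no fit was paired by them. EM names do run through the regions of 1 receptor in turn, the recorded sexes of the pools match within such runs, and the labels do not say that a run shares mice. With runs as a replicate block, an alternative chosen after seeing the data, EM libraries gave 7 called members for dorsal against ventral striatum in D1, 2 in D2, 21 and 42 for cortex against dorsal and ventral striatum, and 0 for the interaction, beside 6, 3, 28, 41 and 0 without it. For cortex the block fits kept only the 11 runs that hold both regions, so 11 cortex libraries in place of 15. There the block and the set of libraries changed together. None of the 3 original calls in D2 was kept, with Uqcrc2 at an adjusted p of 0.082 by limma. Same-run libraries correlated in their deviations from the group means at a median of 0.11 to 0.19, but over 0.1 in only 9 of 11, 5 of 8, 6 of 11 and 7 of 11 runs. Counts of called members moved with the setting as follows. Like those of the block fits, they pool both directions and stand without the share of all genes called under the same setting. Read alone, a change in a count can therefore not be told from a change over the whole table. D1 against D2 in dorsal striatum gave 10, and gave 4 on deposited CPM, 5 with median-ratio scaling, 2 without the filter, 0 over EM libraries, 2 with the code as covariate, 0 with the column sum as covariate and 3 after GC correction. Within EM libraries it gave 0 with median-ratio scaling, 0 with edgeR, 0 on deposited CPM, 1 with the column sum and 0 after GC correction; leaving out D1 dorsal striatum replicate 4 gave 2 to 3. In ventral striatum the count of 26 became 0 with the column sum, 0 in EM libraries with the column sum and 17 after GC correction. Dorsal against ventral in D1 gave 2, and 4 with median-ratio scaling, 6 with edgeR, 6 over EM libraries, 9 with the code, 4 with the column sum and 4 after GC correction. Within EM libraries it gave 6 (median-ratio), 13 (edgeR), 5 (deposited CPM), 7 (column sum) and 8 (GC correction), and without replicate 4 it gave 3 to 7. In D2 the count of 3 became 11 with the code, and 5 on deposited CPM and 14 with the column sum within EM libraries. Each cortex count in this paragraph includes Cox6a2, whose call rests on the filter, and is 1 lower without it. Cortex against dorsal striatum gave 8, and 19 (median-ratio), 15 (quantile), 30 (edgeR), 28 (EM libraries), 35 (code), 14 (column sum) and 25 (GC correction). Within EM libraries it gave 32 (median-ratio), 44 (edgeR), 27 (deposited CPM), 31 (column sum) and 44 (GC correction), and without replicate 4 it gave 10 to 26. Cortex against ventral striatum gave 18, and 41 (EM libraries) and 50 (code). Within EM libraries it gave 33 (median-ratio), 33 (edgeR), 34 (deposited CPM), 48 (column sum) and 38 (GC correction). The interaction gave 0, and 1 after quantile normalization and 1 with the code. Both EM against OdP counts stayed within 1.5 times under every alternative run. The cause of these shifts was not tested.

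Changes of sign among the members named by rule were counted only where the member was called in the main fit or in the alternative. Such changes fell in D1 against D2 in ventral striatum, with 1 exception. Changes of sign without a call in either fit were not counted, so signs of members near 0 may change elsewhere. Within EM libraries the difference became -0.15 for Atp5d and -0.27 for Cox4i1 with the column sum. There edgeR gave -0.24 for Cox5a, -0.22 for Cox6a1, -0.55 for Cox6b1 and -0.26 for Cox7a2. On deposited CPM the values were -0.28 for Cox5a, -0.25 for Cox6a1, -0.29 for Cox7a2, -0.00527 for Cox7a2l and -0.24 for Cox8a, and median-ratio scaling gave -0.22 for Cox5a. GC correction within EM libraries gave -0.53 for Cox6a1, -0.31 for Cox7a2 and -0.50 for Cox8a. Over all libraries Cox4i1 became -0.30 with the column sum, and GC correction gave -0.35 for Cox8a and -0.023 for Uqcrc1. The exception was Cox4i1 in dorsal against ventral striatum of D2, at -0.35 with the column sum in EM libraries. Depth limits the members near 0 RPM, whose levels rest on few reads.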

Other observations

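Subunit c of the ATP synthase is coded by 3 genes, Atp5g1, Atp5g2 and Atp5g3, whose mature proteins are alike, and they differed in how much libraries of 1 group varied. Atp5g2 had the largest SD of the 77 members in 9 of the 10 sets formed by the 5 groups with all libraries and with EM libraries alone, from 0.45 in EM libraries of D1 ventral striatum to 1.20 in those of D2 ventral striatum on the log2 scale; in D2 ventral striatum over all libraries the largest was that of Uqcrq. The median SD of the members in those sets was 0.14 to 0.61, and that of all genes 0.17 to 0.40. In D2 dorsal striatum Atp5g2 ranged from 16.1 to 101 RPM among the 8 EM libraries, while Atp5g3 ranged from 215 to 632 over all 16, OdP names included. Atp5g2 also had the highest GC content of the members with a GC value, at 63.3%. The part of GC content in its spread was not tested.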
